A study of Homo sapiens with 12 samples.

Results

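The polyol pathway and osmolyte genes described here are 8 genes that were matched by symbol to the Ensembl identifiers of the deposited tables, AKR1B1, SORD, KHK, NFAT5, SLC5A3, SLC6A6, SLC6A12 and HSPA4L, out of 62703 identifiers in all. They were measured in RNA of HK2 cells, an immortalised line from the human renal proximal tubule, in 12 libraries that fall into 4 groups of 3. NG cells received a control vector and si-FGF9 cells a small interfering RNA against FGF9 (fibroblast growth factor 9), both in 5.5 mM glucose. HG cells were kept in 50 mM glucose, and HG+OE-FGF9 cells were kept in 50 mM glucose and carried a vector that overexpresses FGF9. No non-targeting siRNA was described, nor whether HG cells received the control vector, so that an effect of the transfection itself cannot be told apart from that of FGF9 or, for HG versus NG, of glucose. The methods place NG in medium with 5.5 mM glucose, whereas the results text of the study speaks of 50 mM mannitol for NG, so that it is uncertain whether the osmolality of NG and HG differed.

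In the polyol pathway, aldose reductase (AKR1B1) reduces glucose to sorbitol, sorbitol dehydrogenase (SORD) oxidises sorbitol to fructose, and ketohexokinase (KHK) phosphorylates fructose. Sorbitol is also one of the organic osmolytes with which renal cells balance a hypertonic surrounding, together with myo-inositol, taurine and betaine, which are taken up by the transporters SLC5A3, SLC6A6 and SLC6A12. The transcription factor NFAT5 (also called TonEBP) is known to bind tonicity enhancers near several of these genes, and HSPA4L (also called OSP94) is a heat shock protein of the HSP110 family that is known to be induced by hypertonicity.

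Upstream windows of 250 bases from RefSeq (GRCh38.p14) were at hand for 3 of the 8 genes, and one for each is shown because AKR1B1 stood apart from SLC5A3 and HSPA4L in the comparisons that follow. Each reads 5′ to 3′ on the strand of the gene and ends at the base before an annotated start, and capitals mark TGGAAA, the core of the tonicity enhancer, and CCAAT, on either strand.
AKR1B1, the downstream of 2 starts, chr7:134459101-134459350, minus strand: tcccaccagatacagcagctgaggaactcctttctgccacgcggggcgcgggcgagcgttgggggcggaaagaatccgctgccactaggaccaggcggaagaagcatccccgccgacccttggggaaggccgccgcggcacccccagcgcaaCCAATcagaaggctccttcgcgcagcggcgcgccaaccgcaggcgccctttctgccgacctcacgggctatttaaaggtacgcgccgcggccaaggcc
SLC5A3, chr21:34073328-34073577, plus strand: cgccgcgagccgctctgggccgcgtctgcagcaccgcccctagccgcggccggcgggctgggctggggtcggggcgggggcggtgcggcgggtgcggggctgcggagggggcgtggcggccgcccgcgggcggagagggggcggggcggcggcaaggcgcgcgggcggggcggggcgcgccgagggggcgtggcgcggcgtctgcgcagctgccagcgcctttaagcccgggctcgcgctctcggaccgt
HSPA4L, the most downstream of 3 starts, chr4:127783273-127783522, plus strand: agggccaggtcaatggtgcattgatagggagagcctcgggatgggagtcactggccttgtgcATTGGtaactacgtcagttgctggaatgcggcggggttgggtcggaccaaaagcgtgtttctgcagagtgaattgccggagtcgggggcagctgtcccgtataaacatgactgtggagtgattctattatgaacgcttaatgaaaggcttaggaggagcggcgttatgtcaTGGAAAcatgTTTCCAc

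The HSPA4L window holds TGGAAA on its own strand from 17 to 12 bases upstream of the start and on the opposite strand from 7 to 2 bases upstream. Both belong to complete tonicity enhancer consensus sequences, and the 2 matches overlap because the stretch from 17 to 2 bases upstream reads the same on both strands. The start of this window lies 1702 bases downstream of the gene start in GENCODE. The consensus was present on either strand in 4.16% of the 35116 upstream windows of all genes, and TGGAAA alone in 18%. No TGGAAA was found in the window of SLC5A3 or in either window of AKR1B1, whose known osmotic response elements lie farther upstream. The AKR1B1 window shown holds CCAAT from 98 to 94 bases and TATTTAA from 30 to 24 bases upstream of the start, letters that 32% and 4.17% of all windows contain. Of the other HSPA4L windows, the middle one holds TGGAAA on the opposite strand and the first none. A match of letters is a description of the sequence, and no binding was measured.

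The authors deposited TPM, transcript abundances scaled for gene length and to the same sum in every library, which keep no depth, so that the counting error of each value is unknown. Per library, 11549 to 13949 genes had a TPM of at least 1. In 3 groups a pair of libraries lay much closer together than to the third. Over 1028 genes with a mean TPM of at least 100, the robust SD of the log2 difference was 0.043 between HG+OE-FGF9 replicates 1 and 2, 0.068 between NG replicates 2 and 3 and 0.11 between si-FGF9 replicates 1 and 2, against 0.24 to 0.64 for the other pairs. Without counts it could not be tested whether such a pair differs by more than sampling noise, nor do the labels say that the libraries came from separate cultures, and p-values measure only the spread between these libraries. FGF9 was listed at 0 in the 9 NG, HG and si-FGF9 libraries and at 3.34 to 4.03 TPM in HG+OE-FGF9. Of the 9 renal tubular epithelial markers, 8 had a mean TPM of at least 1, with keratins such as KRT8 at 389 to 678 TPM, whereas CDH1 did not exceed 0.28. Of the 8 markers of differentiated proximal tubule, 5 stayed below 1 TPM in every library, LRP2, CUBN and SLC34A1 among them, and 3 had a mean of at least 1. These were GGT1 at 71.7 to 195 TPM, SLC5A2 at 0.16 to 3.01 TPM and AQP1 at 0.47 to 2.34 TPM. Of the 6 fibroblast markers, 3 stayed below 1 TPM in every library. LUM was at 55.7 to 84.0 TPM in NG and at 9.10 to 38.7 TPM in the other libraries, and the summed level of the list ranged from 11.5 to 89.2 TPM. LUM thus ran with NFAT5, SLC5A3 and HSPA4L, which were also highest in NG, and its part in their values was not tested. Of the 5 endothelial and leukocyte markers, PECAM1, CDH5, VWF and PTPRC were at 0.10 TPM or less throughout, and CD68 was at 108 to 159 TPM over the 12 libraries.

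The 8 genes differed widely in level. AKR1B1 had a mean of 755 TPM over the 12 libraries, and its lowest value of 414 was above the highest value of any other gene of the group, 19.7 in SLC6A6. SLC6A6 (14.5 TPM), SORD (8.86), SLC5A3 (5.35), HSPA4L (4.09) and NFAT5 (1.89) followed, and the ranges of neighbours in this order overlapped over the 12 libraries. KHK (0.788 TPM) and SLC6A12 (0.634) were close to the limit of what was tested. Between the lowest and the highest library, AKR1B1 varied 2.87-fold, SLC6A6 2.95-fold and SORD 3.31-fold, against 14.3-fold for HSPA4L, 23.0-fold for SLC5A3 and 75.8-fold for NFAT5. A gene was tested when its TPM reached 1 in at least 3 libraries, which 14639 genes and 7 of the 8 did. SLC6A12 did not reach it and KHK did so in exactly 3 libraries, none of them NG or HG. NFAT5 did so in 4 libraries, the 3 of NG and HG replicate 3, and thus passed only through the group where it was high.

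**Figure D1:**
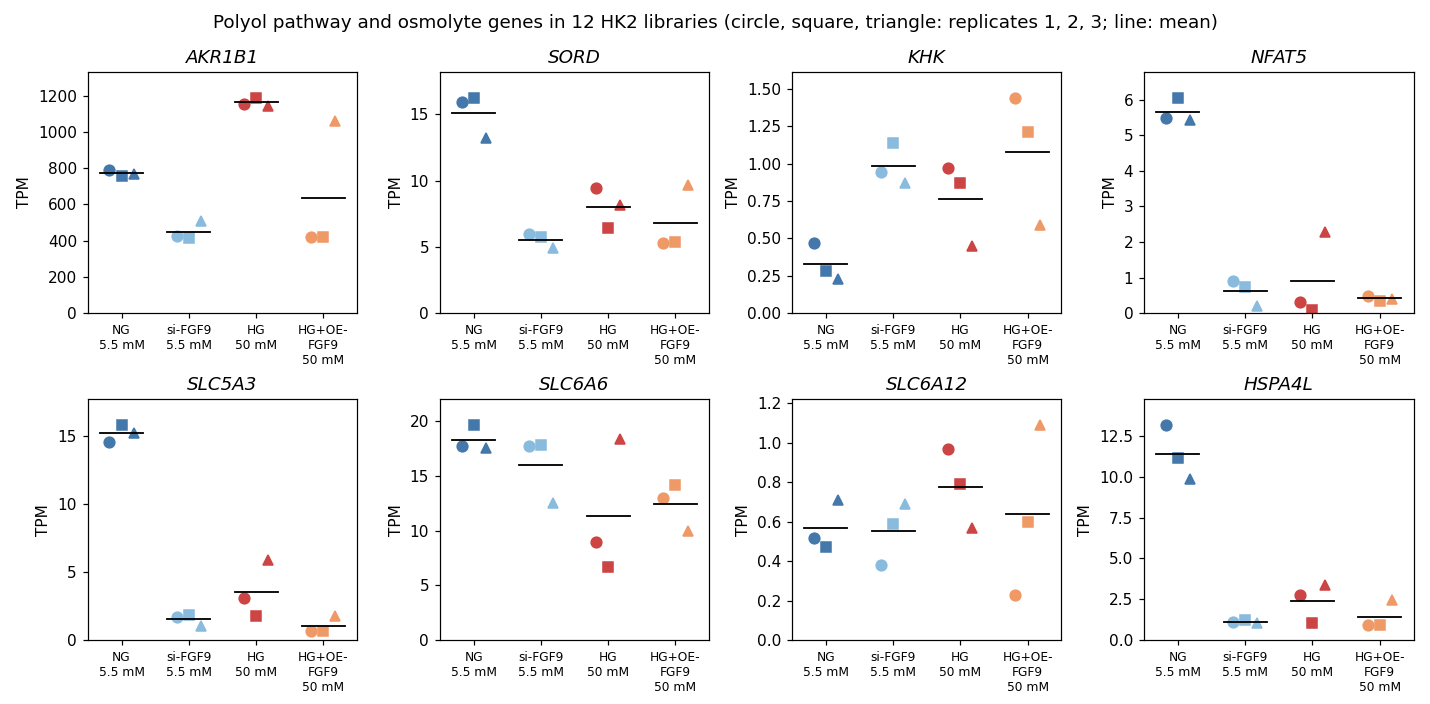
TPM (y axis, from 0) of the 8 genes in each library by group (x axis, with the glucose concentration). Circles, squares and triangles are replicates 1, 2 and 3 and the line is the group mean. AKR1B1 was highest in HG, NFAT5, SLC5A3 and HSPA4L were highest in NG, and HG+OE-FGF9 replicate 3 lay apart from the other replicates in AKR1B1.

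AKR1B1 (ENSG00000085662, chromosome 7, 134442350 to 134459284, minus strand, GRCh38) was the only one of the 8 genes with every HG library above every NG library. It was at 789, 758 and 770.1 TPM in NG and at 1156, 1189 and 1144 TPM in HG. The values did not overlap, and within each group they lay close together, with means of 772 ± 15.3 and 1163 ± 23.1 TPM (SD, n = 3). In si-FGF9 it was at 427, 414 and 506 TPM, below every NG library. In HG+OE-FGF9 it was at 420.1, 419.9 and 1062 TPM, so that replicates 1 and 2 resembled si-FGF9 and replicate 3 lay near HG. AKR1B1 is the rate-limiting enzyme of the polyol pathway. In bulk RNA, fewer cells that express a gene and less of its RNA per cell cannot be told apart. The near-identical pseudogenes of AKR1B1 did not exceed 0.67 TPM, and the paralogs AKR1B10 and AKR1B15 did not exceed 1.09 and 0.11 TPM, which is little beside its own level.

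SORD (ENSG00000140263, chromosome 15, 45023104 to 45077185, plus strand), which takes sorbitol to fructose, had its highest values in NG, at 15.9, 16.3 and 13.2 TPM. It was at 9.47, 6.39 and 8.12 TPM in HG, at 5.96, 5.75 and 4.91 TPM in si-FGF9 and at 5.27, 5.36 and 9.70 TPM in HG+OE-FGF9. No library of the other 3 groups reached the lowest NG value. The 2 identifiers of its pseudogene SORD2P did not exceed 1.71 TPM, and how the authors divided shared reads is not given in the sources used here.

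The ratio of AKR1B1 to SORD in TPM, chosen after the values were seen and given without a test, was 46.7 to 58.3 in NG and 122 to 186 in HG. It was 71.7 to 103 in si-FGF9 and 78.3 to 109 in HG+OE-FGF9. All 9 libraries of the other groups had a higher ratio than the 3 NG libraries, and HG had the highest. Both RNAs were lower in si-FGF9 than in NG, and in HG one was higher and the other lower.

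KHK (ENSG00000138030, chromosome 2, 27086747 to 27100772, plus strand), which takes fructose into further metabolism, was at 0.47, 0.28 and 0.23 TPM in NG and at 0.97, 0.87 and 0.45 TPM in HG. It was at 0.94, 1.14 and 0.87 TPM in si-FGF9 and at 1.44, 1.21 and 0.59 TPM in HG+OE-FGF9. Only si-FGF9 and HG+OE-FGF9 lay wholly above the NG libraries. Fold changes on the log2(TPM + 1) scale understate differences at such low values.

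NFAT5 (ENSG00000102908, chromosome 16, 69565094 to 69704666, plus strand), the transcription factor of the tonicity response, was at 5.49, 6.06 and 5.42 TPM in NG. In HG it was at 0.32, 0.08 and 2.28 TPM, so that replicate 3 stood above the other replicates and still below NG. It was at 0.89, 0.74 and 0.19 TPM in si-FGF9 and at 0.48, 0.35 and 0.40 TPM in HG+OE-FGF9. All 9 libraries outside NG were thus at less than the lowest NG value, in 5.5 mM as in 50 mM glucose.

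SLC5A3 (ENSG00000198743, chromosome 21, 34073570 to 34106262, plus strand), the sodium-coupled myo-inositol transporter, was at 14.6, 15.8 and 15.3 TPM in NG and at 3.09, 1.77 and 5.88 TPM in HG. It was at 1.69, 1.89 and 1.04 TPM in si-FGF9 and at 0.69, 0.69 and 1.75 TPM in HG+OE-FGF9. As with NFAT5, NG stood above all other libraries, and HG replicate 3 was the highest of these. SLC5A3 lies within the locus of MRPS6, which was at 60.2 to 78.0 TPM in NG and at 74.8 to 80.9 TPM in HG, so that the overlapping gene did not show the difference seen in SLC5A3.

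HSPA4L (ENSG00000164070, chromosome 4, 127781821 to 127840733, plus strand) was at 13.2, 11.2 and 9.85 TPM in NG and at 2.79, 1.03 and 3.36 TPM in HG. It was at 1.11, 1.25 and 1.04 TPM in si-FGF9 and at 0.92, 0.95 and 2.44 TPM in HG+OE-FGF9. NG again lay above the 9 other libraries.

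The other transporters moved less. SLC6A6 (ENSG00000131389, chromosome 3, 14402576 to 14489349, plus strand), which carries taurine, was at 17.7, 19.7 and 17.5 TPM in NG and at 8.98, 6.67 and 18.4 TPM in HG, where replicate 3 lay among the NG values. It was at 17.8, 17.8 and 12.5 TPM in si-FGF9 and at 12.99, 14.2 and 10.0 TPM in HG+OE-FGF9. SLC6A12 (ENSG00000111181, chromosome 12, 190077 to 214570, minus strand), which carries betaine, was at 0.47 to 0.71 TPM in NG, 0.57 to 0.97 in HG, 0.38 to 0.69 in si-FGF9 and 0.23 to 1.09 in HG+OE-FGF9, and all 4 groups overlapped. Without the filter on low values its log2 fold change for HG versus NG was 0.18 (95% interval -0.25 to 0.61), and it was not called.

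Between HG and NG, which asks what high glucose does without a manipulation of FGF9, NFAT5, SLC5A3 and HSPA4L fell and no gene of the group was called higher. A gene was called where its log2 fold change was at least 1 in either direction with an unadjusted p under 0.01, the criteria of the study, in limma on log2(TPM + 1) with all 12 libraries in one fit. The log2 fold changes were -1.99 for NFAT5 (SE 0.34, Benjamini-Hochberg adjusted p = 0.0013 in limma), -1.93 for SLC5A3 (SE 0.31, adjusted p = 0.0011) and -1.93 for HSPA4L (SE 0.30, adjusted p = 9.73e-04). These are 3 of 7 genes tested, where 22.7% of all genes tested were called lower and 1.65% higher in HG, and where the median log2 fold change was -0.85 for the 7 and -0.39 for all genes tested. NFAT5 passed the filter only through NG and HG replicate 3, so that its call as lower is not independent of the filter. AKR1B1 had a log2 fold change of 0.59 (95% interval -0.01 to 1.19, adjusted p = 0.097). The residual spread of AKR1B1 is pooled over all groups, HG+OE-FGF9 with its high replicate 3 included. Without that library the fold change was the same with an SE of 0.099 (adjusted p = 0.0011), still short of the fold required. SORD had -0.85 (adjusted p = 0.0090) and SLC6A6 -0.76 (adjusted p = 0.048), both under the fold required. Without HG replicate 3, SLC6A6 had -1.14 (adjusted p = 8.10e-04) and was called as well. KHK had 0.40 (95% interval -0.02 to 0.83).

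In the same fit, HG+OE-FGF9 versus si-FGF9 sets 50 mM against 5.5 mM glucose in libraries that HG versus NG does not use, though with FGF9 raised on one side and silenced on the other. None of the 7 genes was called in limma, and none had an unadjusted p under 0.05, while 7.36% of all genes tested were called higher and 1.65% lower. NFAT5 had a log2 fold change of -0.16 (95% interval -0.90 to 0.58), SLC5A3 -0.34 (-1.01 to 0.34) and HSPA4L 0.14 (-0.51 to 0.79). The si-FGF9 means of these genes, 0.61, 1.54 and 1.13 TPM, were already so low that a fall of the size seen between HG and NG could not appear in this pair on the log2(TPM + 1) scale, and the comparison says nothing about such a fall. AKR1B1 had 0.35 (-0.25 to 0.96), and -0.09 without HG+OE-FGF9 replicate 3. SORD, SLC6A6 and KHK had 0.21, -0.34 and 0.05.

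**Figure D2:**
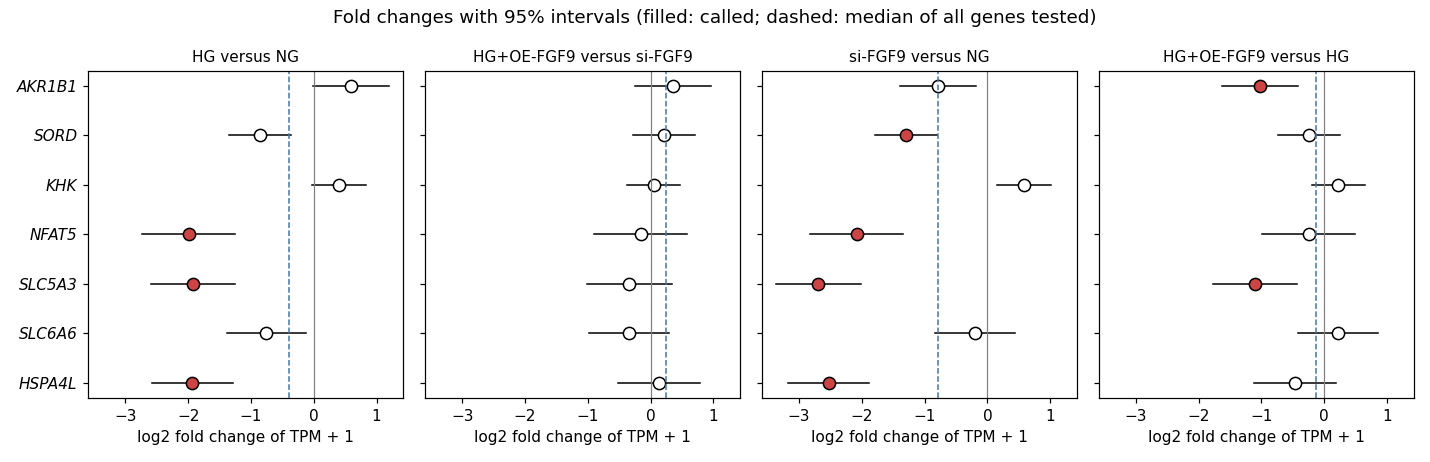
Log2 fold changes of TPM + 1 (x axis) with 95% intervals for the 7 genes tested (y axis) in 4 comparisons. Filled points were called and the dashed line is the median of all 14639 genes tested. NFAT5, SLC5A3 and HSPA4L were called lower in HG and in si-FGF9 against NG and lay near 0 in HG+OE-FGF9 against si-FGF9.

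The difference between the 2 glucose comparisons was itself tested by limma's contrast of contrasts, with an adjusted p under 0.05 as the call. It was called for 4 of 7 genes, all with a higher fold change in HG+OE-FGF9 versus si-FGF9, where glucose and FGF9 differ together. The differences on the log2 scale were 2.07 for HSPA4L (SE 0.42, adjusted p = 0.0026), 1.83 for NFAT5 (SE 0.48, adjusted p = 0.0083), 1.59 for SLC5A3 (SE 0.44, adjusted p = 0.011) and 1.06 for SORD (SE 0.32, adjusted p = 0.016). Of all genes tested, 52.2% were called in this test, 45.1% with a higher and 7.1% with a lower fold change, so that the count for the group has a wide background. For NFAT5, SLC5A3 and HSPA4L, the low si-FGF9 values leave no room for a like fall on this scale, so that some difference was fixed in advance. How much of each difference comes from this was not tested. With a pseudocount of 0.1, which leaves more room, the differences were 3.05, 1.61 and 2.53 (adjusted p = 0.035, 0.047 and 0.0071). Such a pseudocount also widens fold changes at low TPM in general, and the median difference of all genes tested was then 0.905. It thus cannot decide how much was fixed in advance. On the log2(TPM + 1) scale the median difference was 1.06 for the 7 genes and 0.73 for all genes tested. Averaged over both pairs of groups, 50 mM against 5.5 mM glucose gave 2 called genes, SLC5A3 with -1.13 (SE 0.22, adjusted p = 0.0064) and NFAT5 with -1.08 (SE 0.24, adjusted p = 0.010), where 2.23% of all genes were called lower and 1.35% higher. HSPA4L had -0.90 and AKR1B1 0.47 (95% interval 0.04 to 0.90, adjusted p = 0.084). For NFAT5 and SLC5A3 these averages hold a fall in one pair of groups and a pair in which, from the low si-FGF9 values, none of that size could appear. Without HG replicate 2 neither was called, at -0.92 and -0.98, and without HG replicate 1 SLC5A3 alone was. NFAT5 passed the filter only through NG and HG replicate 3, so that its difference and its average are not independent of the filter.

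Within 5.5 mM glucose, si-FGF9 versus NG asks about silencing of FGF9, although FGF9 was listed at 0 in both groups. SLC5A3, HSPA4L, NFAT5 and SORD fell, with log2 fold changes of -2.69 (SE 0.31), -2.53 (SE 0.30), -2.08 (SE 0.34) and -1.30 (SE 0.23) and limma adjusted p of 1.86e-05, 2.16e-05, 1.72e-04 and 2.69e-04. These are 4 of 7 genes, where 42.2% of all genes tested were called lower and 5.36% higher, and the median was -1.30 for the 7 genes and -0.79 for all. The si-FGF9 libraries also stood apart in other values, with 4.94% to 8.60% of TPM from mitochondrial genes against 13.5% to 14.4% in NG and with 11549 to 12013 genes at 1 TPM or more against 13795 to 13949, and the part of these in the falls was not tested. AKR1B1 had -0.79 (adjusted p = 0.023), KHK 0.58 (adjusted p = 0.018) and SLC6A6 -0.19 (95% interval -0.83 to 0.44). The comparison shares the NG libraries with HG versus NG, and the values of NFAT5, SLC5A3 and HSPA4L in both rest on the same 3 high libraries. NFAT5 passed the filter only through NG and HG replicate 3, and KHK only through si-FGF9 and HG+OE-FGF9 libraries. The fall of NFAT5 and the rise of KHK are thus not independent of the filter.

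Within 50 mM glucose, HG+OE-FGF9 versus HG asks about added FGF9. AKR1B1 fell by 1.02 on the log2 scale (SE 0.28, limma adjusted p = 0.039) and SLC5A3 fell by 1.10 (SE 0.31, adjusted p = 0.044), 2 of 7 genes where 2.67% of all genes tested were called lower and 2.94% higher. Neither was called when HG+OE-FGF9 replicate 1 or replicate 2 was left out, when these near-identical libraries were averaged into 1, or when only the 6 libraries of the comparison were fitted. Without replicate 1 AKR1B1 had -0.80 (adjusted p = 0.20), and without replicate 3 it had -1.47 (adjusted p = 2.44e-05). Without HG replicate 3, SLC5A3 had -0.76 and AKR1B1 alone was called. NFAT5 had -0.25 (95% interval -0.99 to 0.49), HSPA4L -0.46, SORD -0.24, SLC6A6 0.22 and KHK 0.23. The adjusted p held less well than the calls. No gene of the group kept one under 0.05 without the filter or when any 1 NG library was left out. The same was found without HG replicate 1 or 3, si-FGF9 replicate 1 or 2, or HG+OE-FGF9 replicate 1 or 2.

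The 3 genes that fell together share a property that their choice did not use. The longest transcripts of HSPA4L, SLC5A3 and NFAT5 have a GC content of 38.1%, 38.3% and 40.4%, lower than in all but 8.6%, 9.5% and 18% of the genes tested, whose median was 48.3%. These transcripts are also among the longest, with 10790, 11576 and 14219 bases against a median of 3244. AKR1B1 has a GC content of 53.5% and 1930 bases, KHK 58.4% and 2411 bases, SLC6A6 51.0% and SORD 47.5%. Among the 1420 genes with the lowest GC content (at most 38.4%), the median deviation from the gene's mean over the 12 libraries was 1.03 to 1.29 in NG on the log2(TPM + 1) scale. In HG it was -0.05, -0.61 and 0.42 for replicates 1, 2 and 3, in si-FGF9 -0.86 to -0.49 and in HG+OE-FGF9 -0.60 to -0.13. HG replicate 3, the HG library with the most NFAT5, SLC5A3, HSPA4L and SLC6A6, was also the HG library with the highest level of low-GC genes, and the part of GC content in these values was examined only by the correction given next.

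**Figure D3:**
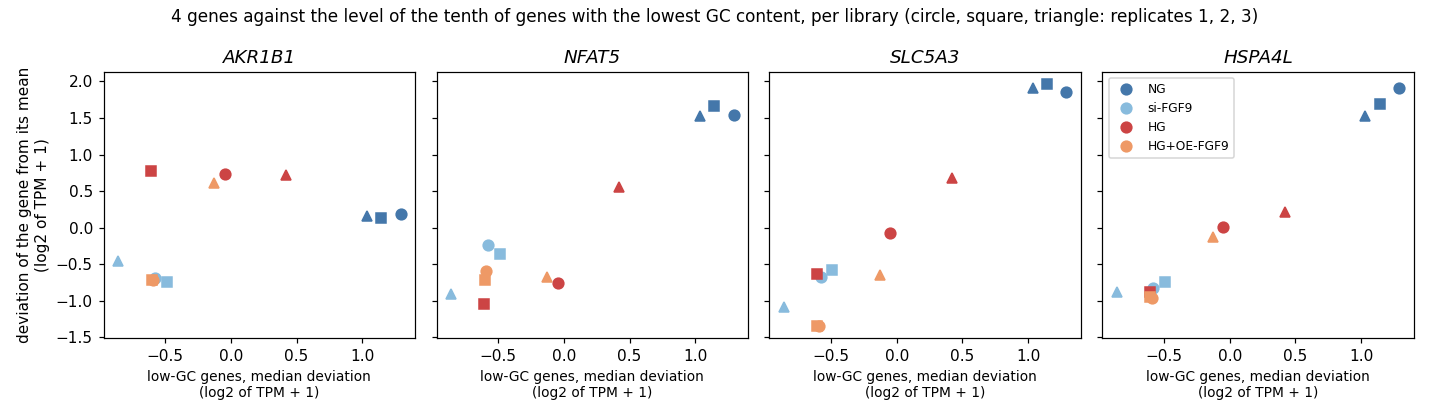
Deviation of AKR1B1, NFAT5, SLC5A3 and HSPA4L from their own mean (y axis) against the median deviation of the 1420 genes of lowest GC content (x axis), both as log2 of TPM + 1, in each of the 12 libraries. NFAT5, SLC5A3 and HSPA4L were high in the libraries where low-GC genes were high, with NG at the upper right, whereas AKR1B1 was highest in HG at all 3 levels of low-GC genes.

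When the trend with GC content was removed from each library, the falls between HG and NG remained below 0 at a smaller size. They were -0.98 for NFAT5 (SE 0.25, limma adjusted p = 0.013), -0.83 for SLC5A3 (SE 0.15, adjusted p = 0.0032) and -0.83 for HSPA4L (SE 0.16, adjusted p = 0.0037), and none reached the fold required. Here too the fall of NFAT5 is not independent of the filter, which it passed only through NG and HG replicate 3. AKR1B1 had 0.75 (SE 0.26, adjusted p = 0.047) and SORD -0.41 (adjusted p = 0.068). For si-FGF9 versus NG, SLC5A3 alone was still called, with -1.05 (adjusted p = 1.56e-04), HSPA4L had -0.88 (adjusted p = 6.24e-04) and NFAT5 -0.54 (adjusted p = 0.082). In HG+OE-FGF9 versus si-FGF9, SLC5A3 then had -0.55 (adjusted p = 0.021). The difference of the 2 glucose comparisons was 0.27 for SLC5A3, 0.58 for NFAT5 and 0.29 for SORD, with adjusted p of 0.35, 0.23 and 0.34, and HSPA4L alone stayed called with 0.75 (adjusted p = 0.025).

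Scaling moved AKR1B1 in another way. With a median-of-ratios scaling, which brought the median of all genes for HG versus NG to 0.00, AKR1B1 had a log2 fold change of 1.10 (SE 0.24, adjusted p = 0.0048) and was called higher in HG, while NFAT5, SLC5A3 and HSPA4L were still called lower with -1.57, -1.45 and -1.47. The filter was the same, so that the call of NFAT5 is again not independent of it. For si-FGF9 versus NG the same scaling gave 0.25 for AKR1B1 in place of -0.79 and 0.78 for SLC6A6 in place of -0.19, neither of them called. SLC6A6 was also above 0 after quantile normalization (0.69) and with the correction for GC content (0.40), and AKR1B1 was not (-0.85 and -0.33). The direction of AKR1B1 and SLC6A6 in si-FGF9 thus depended on the scaling, and for AKR1B1 the higher value in HG did not, with 0.54 to 1.10 over all alternatives.

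**Figure D4:**
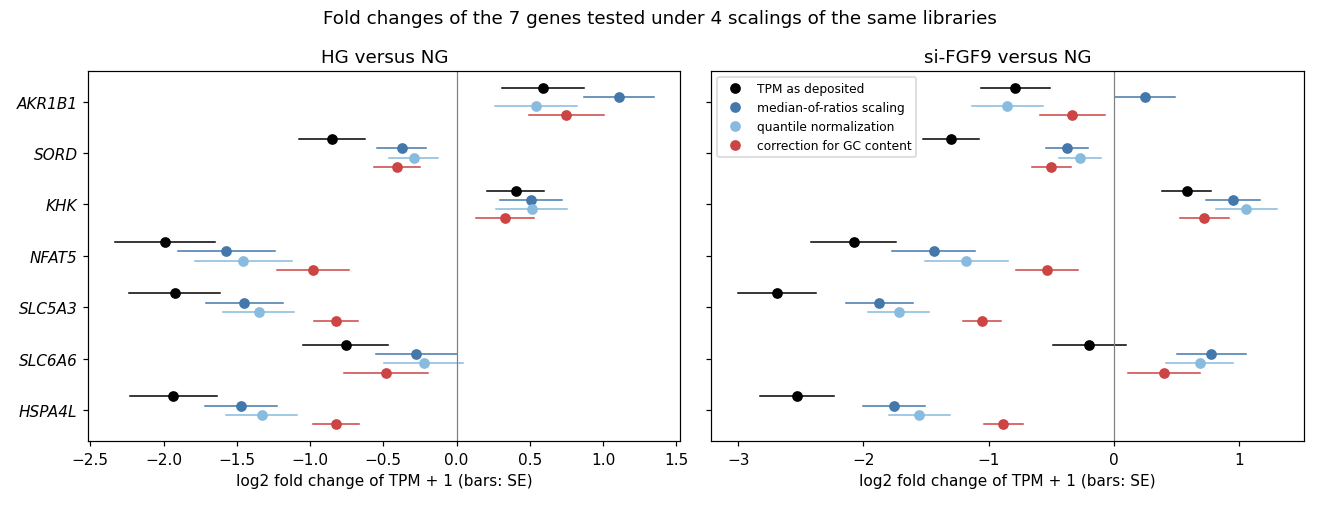
Log2 fold changes of TPM + 1 (x axis, bars are SE) of the 7 genes tested (y axis) for HG and for si-FGF9, each versus NG, with TPM as deposited and under 3 other scalings. NFAT5, SLC5A3 and HSPA4L stayed below 0 under each, closest to 0 with the correction for GC content, and AKR1B1 stayed above 0 for HG versus NG.

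Genes around the group were read from 4 lists. Of 10 polyol and fructose pathway genes tested, which hold hexokinases, aldolases and other aldo-keto reductases, 1 was called between HG and NG. It was HK2, the gene of hexokinase 2, at 13.9 to 14.8 TPM in NG and 3.23 to 6.37 TPM in HG (log2 fold change -1.51, SE 0.21, limma adjusted p = 6.94e-04). The median of the list was 0.24 against -0.39 for all genes tested. Of 14 genes of osmolyte uptake and synthesis tested, 5 were called lower and 1 higher in HG, where 22.7% and 1.65% of all genes tested were. The choline transporter SLC44A1 had -2.05, the inositol monophosphatase IMPA1 -1.78, the proton-coupled inositol transporter SLC2A13 -1.76 and the amino acid transporter SLC38A2 -1.59 (adjusted p from 0.0011 to 0.0032). PNPLA6, which releases glycerophosphocholine, was the gene called higher, with 1.27 (adjusted p = 6.19e-04). The list's median was -0.60. At the same glucose concentration, si-FGF9 versus NG had 7 of these 14 genes called lower and 3 higher. Of all genes tested, 42.2% were lower and 5.36% higher there. HK2, SLC44A1, IMPA1, SLC2A13 and SLC38A2 had lower means in si-FGF9 than in HG, and PNPLA6 a higher one. For HK2 the means were 2.64 and 4.52 TPM, and for SLC44A1 4.47 and 7.79 TPM. Such falls were thus also seen without high glucose, and their cause was not tested.

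Of 16 cell volume regulation genes tested, 6 were called lower in HG and 1 higher, with a list median of -0.81 against -0.39 for all genes tested, of which 22.7% were called lower and 1.65% higher. SGK1, a kinase known to respond to cell volume and to glucocorticoids, was at 91.9 to 106 TPM in NG and 21.9 to 28.1 TPM in HG (log2 fold change -1.94, SE 0.17, limma adjusted p = 5.88e-05). WNK1 and OXSR1, kinases of one cascade that controls chloride transport, had -1.37 and -1.30, and LRRC8D, a subunit of the volume-regulated anion channel, had -1.28. Of 13 tonicity response partners tested, MAPK14, the p38 kinase that acts upstream of NFAT5, fell by 1.11 and S100A4 rose, with 1.21 (adjusted p = 0.0018 and 0.0011). With the correction for GC content, each of the 4 lists had 1 call for HG versus NG, HK2, CSAD and LRRC8E lower and S100A4 higher in HG. Of all genes, 3.06% were then called lower and 3.78% higher. With TPM as deposited, si-FGF9 versus NG had 11 of the 16 cell volume genes called lower and 1 higher. Of the 13 partners, 4 were lower and 2 higher, where 42.2% and 5.36% of all genes tested were. SGK1 was at 9.15 to 13.2 TPM in si-FGF9. WNK1, OXSR1, LRRC8D and MAPK14 also had lower means in si-FGF9 than in HG. With the correction, 2 of the 14 osmolyte genes were called lower and 3 higher in si-FGF9. Of the 16 cell volume genes, 7 were lower and 1 higher, where 12% and 12.3% of all genes were.

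In HG+OE-FGF9 versus si-FGF9, PNPLA6, higher in HG than in NG, fell by 1.26 (SE 0.17, limma adjusted p = 5.97e-04) from a mean of 195 to 80.1 TPM, the only call among the 14 osmolyte genes tested. Averaged over both pairs of groups, SLC44A1 (-1.10), SLC38A2 (-1.001) and HSPH1 (-1.04), a heat shock protein of the same family as HSPA4L, were called lower at 50 mM, with adjusted p of 0.0084, 0.013 and 0.038. These are 2 of 14 osmolyte genes and 1 of 13 partners, where 2.23% of all genes were called lower and 1.35% higher. In si-FGF9, at 5.5 mM, the means of SLC44A1 and SLC38A2 were already low, at 4.47 and 15.0 TPM. With the correction for GC content none of these genes was called, after median-of-ratios scaling SLC44A1 alone was, and after quantile normalization all were.

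**Figure D5:**
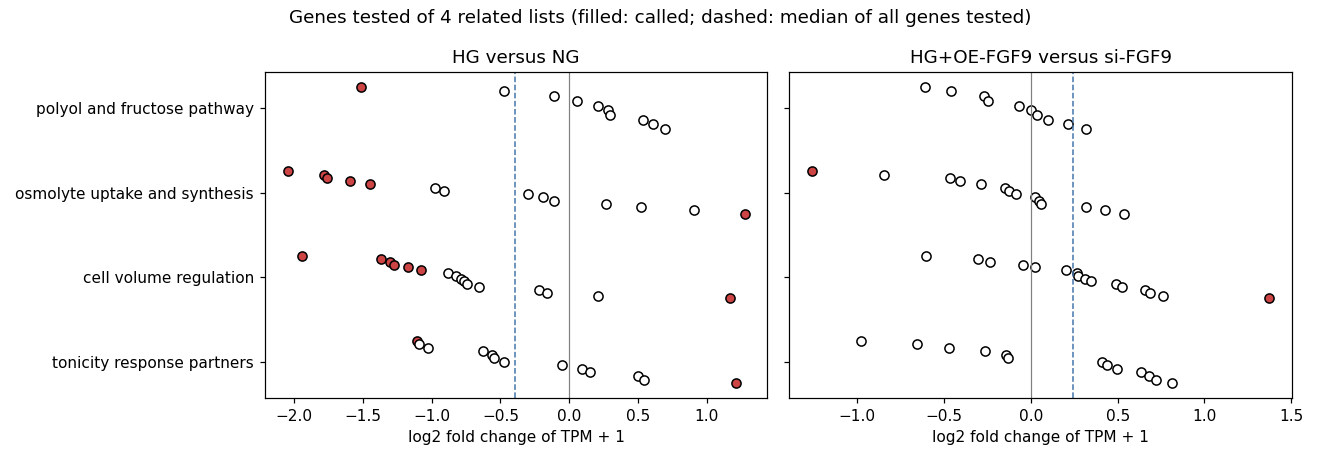
Log2 fold changes of TPM + 1 (x axis) of the genes tested in 4 related lists (y axis) for HG versus NG and HG+OE-FGF9 versus si-FGF9. Each point is a gene, filled where called, and the dashed line is the median of all genes tested. For HG versus NG, 5 of 14 osmolyte genes and 6 of 16 cell volume genes were called lower, where 22.7% of all genes tested were. For HG+OE-FGF9 versus si-FGF9 these were 1 of 14 and 0 of 16, where 1.65% of all genes were.

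The genes whose profile over the 12 libraries was most like that of a gene of the group were taken as those with the smallest root mean square difference of centred log2(TPM + 1), among 13359 genes. For SLC5A3 they were CD109 and PTGFR, at 0.11 and 0.11, where the SD of the profile of SLC5A3 was 1.27. They were MINDY2 and DLG1 for NFAT5 (0.13 and 0.15, profile SD 1.03), KIF14 and TOPORS for HSPA4L (0.12 and 0.13, profile SD 1.11) and VAMP3 and ADO for SORD (0.094 and 0.098, profile SD 0.57). For AKR1B1 the nearest genes, OAS1 and MTND6P3, were farther away, at 0.27 and 0.27 with a profile SD of 0.63. SMIM13 was nearest to SLC6A6 (0.12), and CLTA and LDOC1 to KHK (0.13 and 0.13).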

How the data were processed

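RNA of HK2 cells was sequenced in 12 libraries made by standard Illumina protocols, and their labels gave the 4 groups. The authors deposited TPM per Ensembl gene and library, to 2 decimals. The quantification tool and the annotation are not given in the sources used here. The submitters' processing notes name Bowtie 0.12.2 and the mouse build mm8, although the identifiers are human. TPM hold no counts, so that depth and counting error are unknown.

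From these, log2(TPM + 1) was computed and fitted in limma 3.58.1 (R 4.3.3) with the group as the only term, all 12 libraries together and the prior variance trended on mean level. Genes entered where 3 or more libraries reached 1 TPM. Adjusted p are Benjamini-Hochberg values over all 14639 genes tested. The fit was tested on simulated data. The 8 genes, the other gene lists and the tests were chosen with earlier results of these data known. Of the other lists, the genes called in HG versus NG, HG+OE-FGF9 versus si-FGF9 or 50 mM versus 5.5 mM glucose could be named, at most 4 per list and comparison by fold change, as could the 2 genes nearest in profile to each gene tested. Some results under this rule are not reported here. Gene positions, GC content and length are from GENCODE release 29 (longest transcript), with GC content for 96.9% of the genes tested.

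The alternatives were no filter, 1 TPM reached in all 12 libraries, a pseudocount of 0.1, the libraries of the comparison alone, the replicate number as a block, median-of-ratios scaling, quantile normalization, a natural spline with 5 degrees of freedom on GC content in each library (also with the block), an adjusted p under 0.05 as the call, and each library left out in turn. Averaging the closest libraries was chosen after the data were seen.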

Additional observations from a re-analysis of the deposited data

Results flagged for a closer look

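For 4 of the 7 genes tested, the fold change of HG+OE-FGF9 versus si-FGF9 differed from that of HG versus NG. Both set 50 mM against 5.5 mM glucose. In the first, FGF9 was also raised on one side and silenced on the other, so that glucose and FGF9 cannot be told apart. The calls are by limma's test of the difference itself. Of all genes tested, 52.2% were called in this test, 45.1% with a higher and 7.1% with a lower fold change. HG+OE-FGF9 versus si-FGF9 minus HG versus NG was 2.07 (SE 0.42, adjusted p = 0.0026) for HSPA4L, 1.83 (SE 0.48, adjusted p = 0.0083) for NFAT5, 1.59 (SE 0.44, adjusted p = 0.011) for SLC5A3 and 1.06 (SE 0.32, adjusted p = 0.016) for SORD on the log2(TPM + 1) scale. In each case the HG mean was below the NG mean, and HG+OE-FGF9 versus si-FGF9 gave no call. The si-FGF9 means of NFAT5, HSPA4L and SLC5A3, at 0.61, 1.13 and 1.54 TPM, left no room on this scale for a like fall. Some difference was thus fixed in advance for these 3 genes, by an amount that was not tested. The differences were no smaller with a pseudocount of 0.1, as given above, but the median of all genes tested also rose, from 0.73 to 0.905. Such a pseudocount widens fold changes at low TPM in general, so that it cannot decide how much was fixed in advance. NFAT5 also passed the filter only through NG and HG replicate 3. The level of low-GC genes was also highest in NG, and with the correction for GC content the differences were 0.75, 0.58, 0.27 and 0.29, of which HSPA4L alone kept an adjusted p under 0.05. With that correction, 15% of all genes were called with a higher and 15.7% with a lower fold change.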

How the results depend on the processing

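Counts are of the 8 polyol pathway and osmolyte genes that are members of the group. The members called numbered 3 for HG versus NG, 4 where si-FGF9 was compared with NG, 2 for HG+OE-FGF9 versus HG, 0 for HG+OE-FGF9 versus si-FGF9 and 2 for 50 mM versus 5.5 mM glucose, and 4 differed between the 2 glucose comparisons. For HG versus NG 1.65% of all genes tested were called higher and 22.7% lower, and for si-FGF9 versus NG 5.36% and 42.2%. The shares were 2.94% and 2.67% for HG+OE-FGF9 versus HG and 7.36% and 1.65% for HG+OE-FGF9 versus si-FGF9. They were 1.35% and 2.23% for 50 mM versus 5.5 mM and 45.1% and 7.1% for the difference. With 1 TPM reached in all 12 libraries, which left 3 members tested, the member counts were 0, 1, 1, 0, 0 and 1. The shares over all genes were then 1.96% and 22% for HG versus NG and 6.04% and 41.6% for si-FGF9 versus NG. They were 1.15% and 3.17% for HG+OE-FGF9 versus HG and 6.34% and 1.56% for HG+OE-FGF9 versus si-FGF9. For 50 mM versus 5.5 mM they were 0.616% and 2.33%, and for the difference 43.3% and 8.72%. With the correction for GC content the member counts were 0, 1, 1, 0, 0 and 1, with or without the replicate block, and 4 of 7 members still had an adjusted p under 0.05 for HG versus NG. Without the block, the shares over all genes were 3.78% and 3.06% for HG versus NG and 12.3% and 12% for si-FGF9 versus NG. They were 3.03% and 2.18% for HG+OE-FGF9 versus HG and 3.49% and 3.68% for HG+OE-FGF9 versus si-FGF9. For 50 mM versus 5.5 mM they were 1.25% and 0.803%, and for the difference 15% and 15.7%. Median-of-ratios scaling gave 1 for HG+OE-FGF9 versus HG, 1 for 50 mM versus 5.5 mM and 2 for the difference (1 higher, 1 lower), and quantile normalization 1 and 1 for the last of these. After median-of-ratios scaling the shares over all genes were 3.45% and 1.92%, 1.56% and 1.55%, and 18.1% and 19.4%. After quantile normalization they were 1.76% and 1.73% for 50 mM versus 5.5 mM and 15.5% and 16.7% for the difference. HG+OE-FGF9 versus HG gave 0 on its own libraries, and 0 with the closest libraries averaged in either way. In these fits 1.96%, 1.4% and 1.21% of all genes were called lower. An adjusted p under 0.05 without a minimum fold gave 5 for HG versus NG, where 49% of all genes tested passed it. Leaving out 1 library gave 3 to 4 members for HG versus NG, 0 to 2 for HG+OE-FGF9 versus HG (0 without HG+OE-FGF9 replicate 1 or 2, 1 without HG replicate 3), 0 to 3 for 50 mM versus 5.5 mM (0 without HG replicate 2, 1 without HG replicate 1) and 4 to 5 for the difference. Over the leave-one-out fits, 14.5% to 28.7% of all genes were called lower for HG versus NG and 1.46% to 7.12% for HG+OE-FGF9 versus HG. For 50 mM versus 5.5 mM 1.08% to 5.28% were lower, and for the difference 38.2% to 50.4% were called higher. Apart from the construction of the filter and of the leave-one-out fits, the cause of the changes in the member counts was not tested.

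Over single genes, 864 values under an alternative stayed on the same side of the threshold, 49 lost a call, 15 gained one and none that was called changed sign. HG+OE-FGF9 versus si-FGF9 kept its count of 0 under every alternative run. The replicate numbers did not pair the libraries. Over 18 pairs of same-numbered libraries the deviations from the group means correlated between -0.44 and 0.25, with 3 above 0.1, and the replicate block left the counts at 3, 4, 2, 0, 2 and 4. Over all genes, HG versus NG had 242 called higher and 3328 lower with TPM as deposited, 1063 and 1240 after median-of-ratios scaling, 1016 and 1220 after quantile normalization, and 536 and 434 with the correction for GC content. For si-FGF9 versus NG these were 785 and 6181, 2774 and 2613, 2373 and 2500, and 1751 and 1701. In HG+OE-FGF9 versus si-FGF9 they were 1077 and 241, 560 and 703, 530 and 537, and 495 and 522. With 3 libraries a group and no depth, differences in KHK and SLC6A12, both near 1 TPM or below, were not detectable unless large.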

Other observations

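HSPA1A, HSPA1B and HSPH1, heat shock proteins picked after their values were seen, varied strongly within HG and si-FGF9. HSPA1A was at 80.1 and 90.6 TPM in HG replicates 1 and 2 and at 494 TPM in replicate 3, and in si-FGF9 it was at 404 and 357 TPM in replicates 1 and 2 and at 95.2 TPM in replicate 3. HSPA1B, a near-identical copy whose reads cannot be fully told apart from those of HSPA1A, was at 45.5, 43.3 and 558 TPM in HG and at 291, 281 and 41.7 TPM in si-FGF9. HSPH1 was at 55.8, 33.1 and 151 TPM in HG and at 137, 138 and 51.0 TPM in si-FGF9. The libraries lay closer together in NG, at 208 to 237 TPM for HSPA1A and 127 to 160 TPM for HSPH1, and in HG+OE-FGF9, at 179 to 241 and 44.4 to 58.5 TPM. HSPA4 and HSPB1 of the same list varied less within HG, at 79.2 to 110 and 1737 to 2300.1 TPM. The HG library with high HSPA1A was also the one with the highest NFAT5 and SLC5A3 of its group, and the part of either in the other was not tested.

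MIOX, the renal enzyme that breaks down myo-inositol, was likewise picked after its values were seen. It was at 2.41 to 3.88 TPM in NG and at 4.53 to 9.10 TPM in the 9 other libraries. MIOX was thus lowest in NG, where SLC5A3 was highest, and it was called higher in si-FGF9 versus NG (log2 fold change 1.09, SE 0.25, limma adjusted p = 0.0020).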
